A study of Mus musculus with 4 samples.

Results

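Leukocytes, cells of the hematopoietic lineage, were examined inside 2 single-cell RNA-seq libraries that had been sorted for a smooth muscle and pericyte reporter. A cell was counted as a leukocyte when it held at least 1 unique molecular identifier (UMI, 1 captured transcript) of Ptprc and fewer than 20 UMIs of Dcn per 10000. By this rule 352 of 1958 cells were leukocytes. They made up 208 of 1504 cells in tdT1 (13.8%, exact 95% binomial interval 12.1 to 15.7) and 144 of 454 cells in tdT2 (31.7%, interval 27.5 to 36.2). Intervals in this text cover counting error only, and cells of 1 library are not replicates. The cells were chosen by their measured Ptprc and Dcn, so both levels are given as a description only.

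Ptprc (ENSMUSG00000026395, GRCm38 chromosome 1, positions 138062861 to 138175708) encodes CD45, a tyrosine phosphatase on the surface of nearly all leukocytes. Dcn (ENSMUSG00000019929, chromosome 10, 97479609 to 97518143) encodes decorin, a collagen-binding proteoglycan that fibroblast-like cells of the vessel wall make in large amounts. In the reporter mice, Cre recombinase is driven by the Cspg4 promoter. Cspg4 (chromosome 9, 56865033 to 56899870) encodes NG2, a proteoglycan of pericytes, smooth muscle cells and glial progenitors. Cre removes a stop sequence before tdTomato, so a cell and its descendants carry the red protein whether or not Cspg4 is still transcribed. Resident macrophages line collecting lymphatic vessels and veins, while monocytes, neutrophils and lymphocytes circulate in blood and lymph.

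All mice of the study were on a C57BL/6J background. Both tdT libraries came from Cspg4-Cre +/-, Ai9-tdTomato +/- mice, over 8 months of age, with the vessels of 3 mice pooled in each library. The popliteal lymphatic vessels (PLVs) and the superficial saphenous vein (SSV) were dissociated together, and live (DAPI-) tdT+ events were collected. The WT library came from 3 pooled 9-month-old male mice without the reporter (C57BL6 in the labels), sorted on high scatter rather than on fluorescence. A library of TNF-Tg mice, which overexpress human tumor necrosis factor, of the same age and sex and sorted as WT, served here only as a second library without the reporter. tdT1 differed from the other libraries in sorting nozzle, sequencer and Cell Ranger version, and these cannot be told apart from the replicate. The same rule selected 2746 of 5488 cells in WT (50.04%) and 1968 of 3391 in TNF-Tg (58.0%). The sex of the tdT mice was not given in the labels. The popliteal vessels and the vein were not separated, so the vessel of origin of a leukocyte is not known.

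The margin of the rule differed between the replicates. The leukocytes held a median of 5 Ptprc UMIs in tdT1 and 3 in tdT2, and 45 and 41 of them, respectively, held exactly 1. A further 25 cells of tdT1 and 1 of tdT2 had a Ptprc UMI but lay outside the rule by their Dcn. In tdT1 the highest Dcn level inside the rule was 19.9 UMIs per 10000 and the lowest outside it was 20.2, with 22 leukocytes between 10 and 20. In tdT2 the corresponding values were 4.88 and 25.1, with no leukocyte between 10 and 20. Between 20 and 40 per 10000 lay 8 of the 25 cells left out in tdT1 and the only one in tdT2. Leukocytes just inside the limit were thus found in tdT1 and not in tdT2.

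Stromal transcripts followed the same pattern. At least 1 Dcn UMI was present in 128 of 208 leukocytes of tdT1 and in 4 of 144 of tdT2. At least 3 of 10 stromal marker genes (among them Col1a1, Col3a1 and Gsn) were detected in 79 leukocytes of tdT1 and in none of tdT2 (interval up to 2.53%). In WT 627 of 2746 leukocytes (22.8%) held as many. Levels are UMIs of a gene per 1000000 UMIs (CPM), summed over the cells of a group. The summed level of this list was 635 CPM in the leukocytes of tdT1 against 37452 in its other cells, and 136 against 32873 in tdT2, with Gsn the most abundant gene in each. Cspg4 itself had no UMI in any leukocyte of tdT1, tdT2 or WT, and no leukocyte held 3 of 10 smooth muscle or pericyte markers. The source of the stromal UMIs in tdT1 was not tested.

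Depth was nearly the same in the replicates, while mitochondrial share, the fraction of a cell's UMIs from mitochondrially encoded genes, differed. The median leukocyte held 4898 UMIs and 1691 genes in tdT1, and 4826 UMIs and 1848 genes in tdT2. The other cells of the same libraries had medians of 7373 and 4944 UMIs. In WT the median leukocyte was deeper, at 12134 UMIs. Without low-quality cells, those with over 10% mitochondrial UMIs or under 500 genes, the medians were 8216 UMIs in tdT1 and 4923 in tdT2, so the near equality of the replicates was lost. With cells under 1500 UMIs left out and the others thinned to 1500, 177 leukocytes of tdT1 and 137 of tdT2 remained. Their medians were 767 and 775 genes, against 775 and 790 in the other cells treated alike. The leukocytes contributed 11.5% of all UMIs of tdT1 and 33.2% of those of tdT2, less than their share of cells in the first and slightly more in the second.

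**Figure D1:**
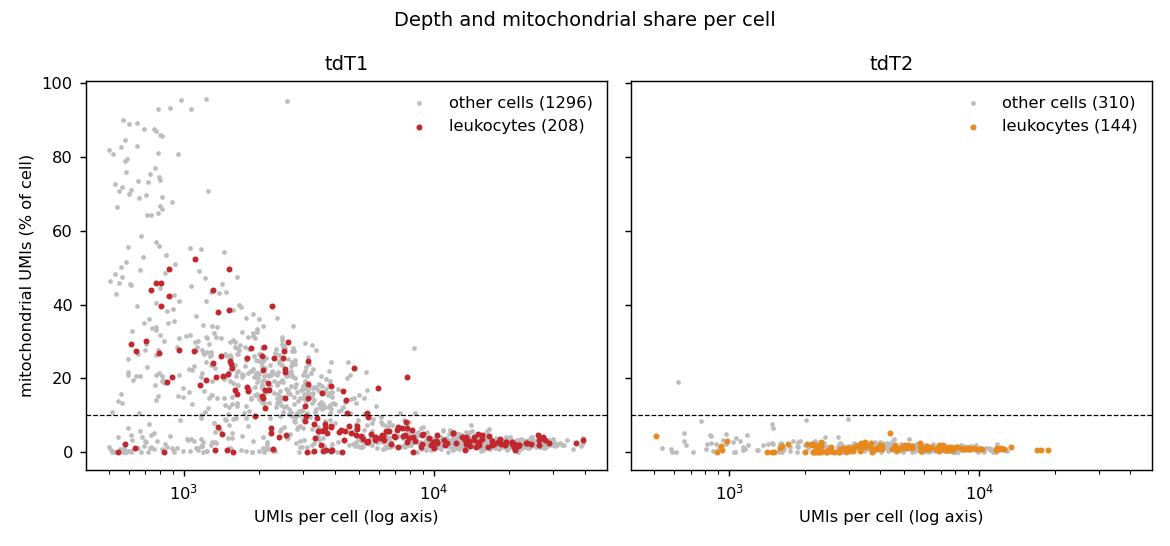
Each point is 1 cell of tdT1 (left) or tdT2 (right), with UMIs per cell on a log axis and the percentage of mitochondrial UMIs, leukocytes in colour and other cells in grey. In tdT1, 65 leukocytes lie above the dashed line at 10%, in tdT2 none.

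The median mitochondrial share of leukocytes was 4.79% in tdT1 and 1.05% in tdT2, against 3.22% and 1.17% in the other cells. More than 10% mitochondrial UMIs were found in 65 of the 208 tdT1 leukocytes (31.3%, maximum 52.4%) and in none of tdT2 (maximum 5.14%). Counting also cells with fewer than 500 genes, 69 leukocytes of tdT1 (33.2%, interval 26.8 to 40.02) and 2 of tdT2 (1.39%, interval 0.169 to 4.93) were of low quality. Among the other cells of tdT1 the low-quality share was 38.4% (interval 35.8 to 41.1), which overlaps that of its leukocytes. In tdT2 it was 9.35% (interval 6.35 to 13.2), above that of the leukocytes with no overlap. All 29 of these tdT2 cells had under 500 genes. The rule asks for a Ptprc UMI, which a shallow cell is less likely to hold, so the selection itself may set part of this difference. The shallow, mitochondria-rich cells are plotted by library above.

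To describe the lineages, leukocytes of tdT1, tdT2 and WT were clustered together after integration, and a cluster was named only when at least 3 markers of a lineage were among its 50 leading genes. Of 14 clusters, 11 were named, and these formed 9 classes. In this clustering the largest class was macrophage-like, with 41 cells of tdT1 and 35 of tdT2, a mean share of 22.0% ± 3.25 (SD, n = 2) of leukocytes. Monocyte-like cells followed (24 and 30 cells, 16.2% ± 6.57), then neutrophil-like (16 and 26 cells, 12.9% ± 7.33) and T cell-like cells (22 and 17 cells, 11.2% ± 0.869). B cell-like (16 and 3 cells), NK cell or innate lymphoid cell (ILC)-like (10 and 5), proliferating (6 and 4), dendritic cell-like (7 and 2) and mast cell-like cells (4 and 1) were rarer. Among the 4 largest classes, neighbours in this order did not differ beyond the larger of their SDs over the libraries. The largest named class changed with the clustering. With tdT1 and tdT2 clustered alone it was T cell-like, at a mean of 27.8% against 18.5% for macrophage-like cells, and without integration B cell-like, at 20.2% against 14.5%. The first held 81 cells of tdT1 and 24 of tdT2, while 22 and 17 leukocytes held at least 3 T cell markers. The second held 74 and 7 cells, while 21 and 3 leukocytes held at least 3 B cell markers. Most tdT1 cells of both thus lacked 3 markers of the lineage, so these names do not make T or B cells the largest lineage. In the main clustering the remaining 62 leukocytes of tdT1 and 21 of tdT2 lay in 3 unnamed clusters.

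**Figure D2:**
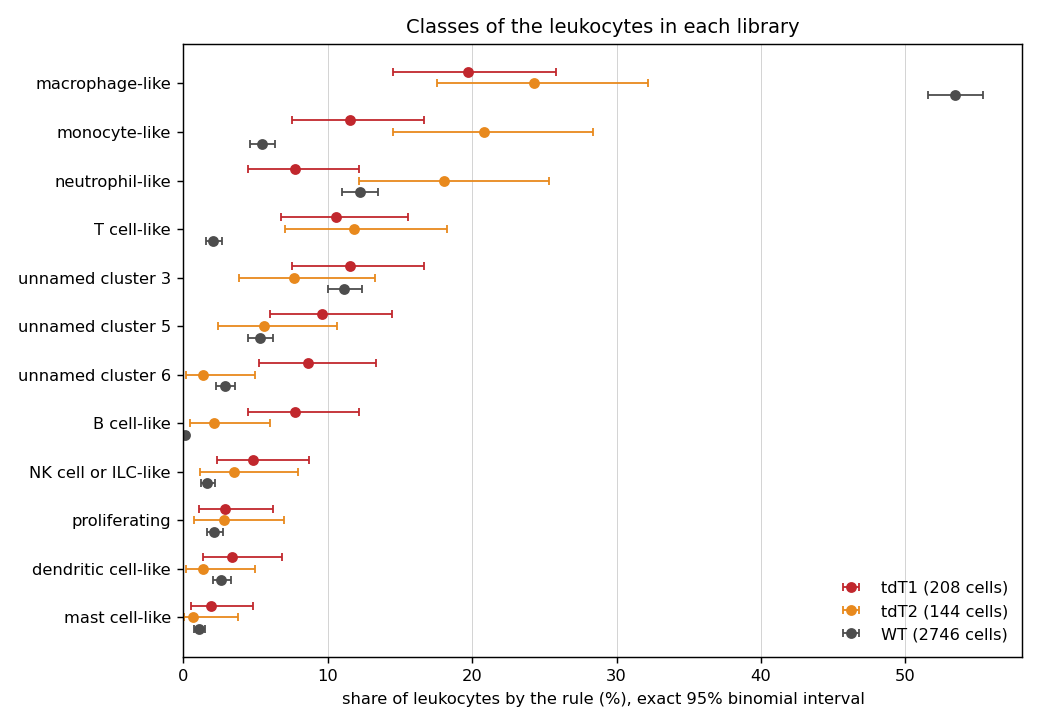
Each point is the share of leukocytes in a class, in percent, with its exact 95% binomial interval, for tdT1, tdT2 and WT. Macrophage-like cells were 19.7% and 24.3% in the tdT libraries and 53.5% in WT, while T cell-like cells were 10.6% and 11.8% against 2.08%.

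The replicates were closer for some lineages than for others. T cell-like cells took 10.6% (interval 6.75 to 15.6) of leukocytes in tdT1 and 11.8% (7.03 to 18.2) in tdT2. With tdT1 and tdT2 clustered alone the class named T cell-like took 38.9% (81 cells) and 16.7% (24 cells). Only 22 leukocytes of tdT1 and 17 of tdT2 held at least 3 T cell markers, again 10.6% and 11.8%. The larger class therefore does not show that the T cell shares differed. Neutrophil-like cells took 7.69% (4.46 to 12.2) and 18.1% (12.1 to 25.3), and B cell-like cells 7.69% (4.46 to 12.2) and 2.08% (0.432 to 5.97). Against WT, both tdT libraries had the lower share of macrophage-like cells and the higher shares of monocyte-like cells (11.5% and 20.8% against 5.43%) and of all lymphoid classes together (23.1% and 17.4% against 3.82%). With 2 libraries against 1, these shares were not tested, and the reporter, the sort gate, the sex of the mice and the run cannot be told apart as their source.

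Markers detected in each cell, counted without clustering, were set beside the classes. At least 3 of 12 T cell markers were found in 22 leukocytes of tdT1 and 17 of tdT2, numbers equal to those of the T cell-like class. The classes were named from the same marker lists, so equal numbers are no independent check and need not mean the same cells. For 12 neutrophil markers the counts were 18 and 26, and for 9 B cell markers 21 and 3. For 10 monocyte markers they were 43 (20.7%) and 35 (24.3%) against 637 (23.2%) in WT, so that the higher monocyte-like share of the tdT libraries was not seen in these counts. For 12 dendritic cell markers they were 118 (56.7%) and 73 (50.7%) against 2207 (80.4%) in WT, far more than the 7 and 2 dendritic cell-like cells. This list includes the MHC class II chains H2-Ab1, H2-Aa and H2-Eb1, which other classes also held. In macrophage-like cells H2-Aa had 6429 CPM in tdT1 and 5046 in tdT2, so these counts are not numbers of dendritic cells. For 13 macrophage markers they were 92 (44.2%) and 80 (55.6%) against 2320 (84.5%) in WT, more than the 41 and 35 tdT cells of the macrophage-like class. Without integration 14 cells of tdT1 and 32 of tdT2 fell in macrophage-like clusters, and 74 cells of tdT1 joined the cluster with B cell markers.

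**Figure D3:**
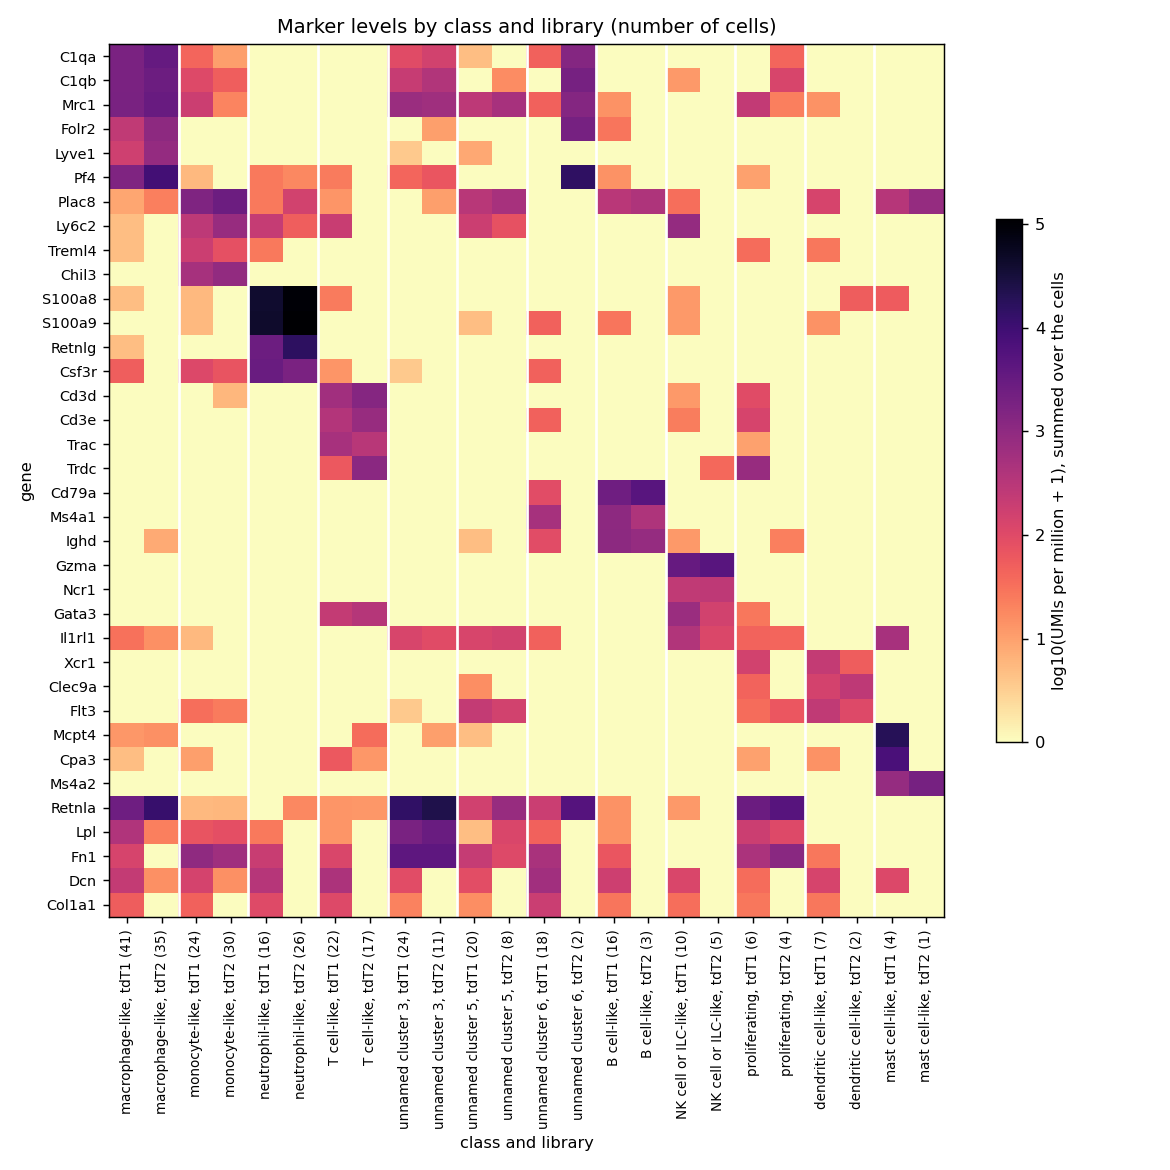
Colour gives log10(CPM + 1), summed over the cells of each class and library (columns, with cell numbers), for lineage markers, genes of unnamed clusters and the stromal genes Dcn and Col1a1 (rows). Most markers are dark in their own class in both replicates, and the stromal rows are coloured in most tdT1 columns and nearly blank in tdT2.

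Macrophage-like cells came from 2 clusters. The first (26 cells of tdT1, 28 of tdT2) was led by C4b, Cd209f, Cd209g, Ednrb and Ccl8, and its markers included Folr2, Lyve1 and Cd163, genes of perivascular resident macrophages. The second (15 and 7 cells) was led by Apoe, Axl, C3ar1, Cxcl10 and Ifit2. In WT the clusters held 1031 and 437 cells. The macrophage-like cells of tdT1 were shallow, with a median of 3329 UMIs and 10.6% mitochondrial UMIs, and 21 of 41 were of low quality. In tdT2 the medians were 3869 UMIs and 1.57%, with none of low quality.

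C1qa, a chain of complement C1q, had 1798 CPM in tdT1 (26 of 41 cells with a UMI), 3314 in tdT2 (34 of 35) and 5911 in WT (1467 of 1468). Mrc1, the mannose receptor, had 1829, 3109 and 2570 CPM in the same order and was detected in 36 of 41 and 35 of 35 tdT cells. C1qa thus lay lower in both tdT libraries than in WT, whereas for Mrc1 WT lay between them.

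Receptors of resident macrophages were lower in tdT1 than in tdT2. Lyve1 (chromosome 7, 110850607 to 110863239), a hyaluronan receptor shared with lymphatic endothelium, had 167 CPM in tdT1, 848 in tdT2 and 616 in WT. Folr2, a folate receptor, had 251, 1032 and 1215, and Cd163, the hemoglobin scavenger receptor, 700, 1223 and 1632. Ccr2, the receptor that marks monocyte-derived cells, went the other way, with 996 in tdT1, 134 in tdT2 and 173 in WT. Per cell, Lyve1 without Ccr2 was detected in 7 of 41 cells of tdT1 and 26 of 35 of tdT2, and Ccr2 without Lyve1 in 13 and 5. The summed levels of the replicates thus differed in both genes, in opposite directions. They pool both clusters of the class: the first, with Lyve1 among its markers, held 26 cells of tdT1 and 28 of tdT2, the second 15 and 7. Median depths were 2518.5 and 3915.5 UMIs in the first and 8843 and 3374 in the second, so the clusters weigh differently in each replicate. The low-quality cells of tdT1 also lie among them. The part of cluster make-up and of cell quality in these levels was not tested.

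Monocyte-like cells (cluster led by Chil3, Apoc2, Plac8, Ace and Gngt2) were of good depth in both libraries, with medians of 8642 and 7395 UMIs. Their median mitochondrial shares were 3.35% and 1.01%, and 5 of 24 in tdT1 and 0 of 30 in tdT2 were of low quality. Ly6c2, a surface marker of classical monocytes, had 277 CPM in tdT1, 788 in tdT2 and 394 in WT. Treml4 (chromosome 17, 48264295 to 48275360), a marker of patrolling monocytes, had 180, 78.8 and 22.1, and Ace, the angiotensin-converting enzyme, 328, 190 and 45.9. Both patrolling genes were thus higher in each tdT library than in WT, while the Ly6c2 values of the tdT libraries lay on both sides of it. Cells with Treml4 or Ace but no Ly6c2 numbered 6 of 24 in tdT1, 7 of 30 in tdT2 and 7 of 149 in WT. Cells with Ly6c2 alone numbered 6, 12 and 77. Spn, which encodes CD43 and is also high in patrolling monocytes, had 245, 134 and 23.8 CPM. Cx3cr1, the fractalkine receptor, had 231, 408 and 183. These levels were not tested between the libraries.

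Neutrophil-like cells (led by S100a9, S100a8, Retnlg, Slpi and G0s2) were shallow, with medians of 3080, 2306 and 3547 UMIs in tdT1, tdT2 and WT, and had the lowest mitochondrial share of the named classes (medians 0.567%, 0.171% and 0.309%). S100a8 and S100a9 encode the subunits of calprotectin, the main cytosolic protein of neutrophils. S100a9 had 42857 CPM in tdT1, 113141 in tdT2 and 142440 in WT, and S100a8 (chromosome 3, 90668978 to 90670035) had 40464, 99017 and 101379. In tdT1 S100a9 was found in 12 of the 16 neutrophil-like cells, in tdT2 and WT in all. Retnlg, a resistin-like gene of mature neutrophils, had 2640, 15466 and 12668 CPM. Il1r2, the decoy receptor of interleukin 1, was highest in tdT1, with 3059 against 268 and 619. Csf3r, the receptor of granulocyte colony-stimulating factor, was at 2936, 1761 and 1774, and so varied less. The neutrophil-like cells of tdT1 thus had lower levels of the calprotectin and Retnlg transcripts than those of tdT2 and WT, and 5 of the 16 were of low quality. Genes of basophils, another granulocyte, moved with this: the 7 listed genes summed to 691 CPM in the class in tdT1 (28 UMIs over 3 genes, Cyp11a1 highest at 543 CPM), had no UMI in tdT2 and stood at 20.1 CPM in WT. Their part in the result was not tested.

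T cell-like cells were led by Cd3g, Cd3d, Trac, Trbc2 and Cd3e. Cd3e (chromosome 9, 44998740 to 45009627), a signalling chain of the T cell receptor complex, had 354 CPM in tdT1, 786 in tdT2 and 611 in WT. Trac, the constant chain of the alpha-beta receptor, had 484, 307 and 345. Trdc, the constant chain of the gamma-delta receptor, had 59.1, 1127 and 962. Within this class the 8 gamma-delta genes were thus higher in tdT2 and WT than in tdT1, at 3439, 2534 and 224 CPM in sum. Most gamma-delta UMIs of tdT1, 177 of 218, lay in its proliferating class instead, and over all leukocytes the sums were 133 CPM in tdT1, 394 in tdT2 and 49.5 in WT. Trac without a gamma-delta gene (Trdc, Trdv4 or Cd163l1) was detected in 14 of 22 cells of tdT1 and 7 of 17 of tdT2. A gamma-delta gene without Trac was detected in 4 and 8 cells, and both in 0 and 2. Ccr7 and Lef1, genes of naive and central memory T cells, had 508 and 272 CPM in tdT1, against 50.1 and 72.1 in WT. In tdT2 Ccr7 had 11.4 and Lef1 no UMI. Cxcr6, a receptor of tissue T cells, had 35.4 in tdT1, 752 in tdT2 and 705 in WT. Here too 11 of 22 cells of tdT1 were of low quality and none of tdT2, and the median mitochondrial shares were 11.2% and 1.47%.

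B cell-like cells (led by Igkc, Cd79a, Ly6d, Iglc2 and Ighd) numbered 16 in tdT1 and 3 in tdT2. Among cells with no Ptprc UMI and Dcn under 20 per 10000, 5 of tdT1 and 6 of tdT2 held at least 3 B cell markers, so the difference between the libraries depends on the Ptprc limit. The median Ptprc count of the class was 4 UMIs in tdT1 and 1 in tdT2. All 16 cells of tdT1 were of good quality, and all of them carried Cd79a (chromosome 7, 24897381 to 24902197), a signalling chain of the B cell receptor, as well as Cd79b, Ms4a1, Ighm and Ighd. Ighd, the heavy chain of naive B cells, had 1060 CPM in tdT1, 822 in tdT2 and 164 in WT. Jchain, a gene of antibody-secreting cells, had no UMI in the B cell-like cells of either tdT library. In WT, 18347 Igkc UMIs came from 3 cells, 1 of which held Jchain.

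NK cell or ILC-like cells formed 2 clusters. The first (7 cells of tdT1, 3 of tdT2) was led by Gzma, Ccl5, Klra8, Klre1 and Klra4, cytotoxic and receptor genes of NK cells. The second (3 and 2 cells) was led by Ptpn13, Ccdc184, Rnf128, Il2ra and Gata3, the last the transcription factor of type 2 innate lymphoid cells. Gzma, which encodes the protease granzyme A, had 3145 CPM in tdT1 and 4747 in tdT2 over both clusters, against 1742 in WT. In WT the clusters held 21 and 24 cells, so the make-up of the class differed between the libraries. Cd3e was found in 1 of 10 cells of tdT1 and in none of tdT2.

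Dendritic cell-like, mast cell-like and proliferating cells were the smallest classes in this clustering. The mean dendritic cell-like share rose from 2.38% to 10.7% with tdT1 and tdT2 clustered alone and to 11.4% without low-quality cells, so its place in the order is not stable. Dendritic cell-like cells, led by Sept3, Rtl8b, Ifi205, Txndc16 and Clec9a, carried Xcr1, a chemokine receptor of cross-presenting dendritic cells, in 5 of 7 cells of tdT1 and 1 of 2 of tdT2. The 4 mast cell-like cells of tdT1 shared Cpa3, Ms4a2, Fcer1a and Gata2, and 3 of them held the connective tissue mast cell protease Mcpt4 at 19050 CPM. The only such cell of tdT2 held Ms4a2, Fcer1a and Gata2 with neither Mcpt4 nor Cpa3. These 3 genes are shared with basophils, and the cell held 16 UMIs over 5 of 7 basophil genes, Cyp11a1 the most abundant, against 10 UMIs over 3 of 9 mast cell genes. Its own genes therefore do not bear out the class name. The 10 proliferating cells were led by Top2a, Hist1h1b, Hist1h2ap, Pclaf and Hist1h2ae.

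The unnamed clusters held cells of different depth, and clusters 3 and 5 had medians of 16478 and 16037 UMIs in tdT1 and of 7870 and 6886 in tdT2. Cluster 3 (24 cells of tdT1, 11 of tdT2) was led by Lyz1, Lpl, Fn1, Retnla and Fcrls. Retnla, a resistin-like gene of alternatively activated macrophages, had 14282 CPM in tdT1, 23523 in tdT2 and 21612 in WT, and Fn1, fibronectin, 3992, 3941 and 3491. The 3 libraries thus had nearly the same level of fibronectin transcript in this cluster. Cluster 5 (20 and 8 cells) was led by Nr4a3, Tnfsf9, Flt3, Klrd1 and Efnb2, and Cd74, the invariant chain of MHC class II, had 33788, 26484 and 31797 CPM. Flt3, the growth factor receptor of dendritic cells, was detected in 17 of 20 and 4 of 8 of its cells. Cluster 6 (18 and 2 cells) held the poorest cells: its tdT1 cells had medians of 881 UMIs and 34.9% mitochondrial UMIs, and all 18 were of low quality.

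Cells with leukocyte markers were also found outside the rule. Among cells with no Ptprc UMI and Dcn under 20 per 10000 (345 in tdT1, 68 in tdT2), at least 3 macrophage markers were detected in 24 and 19 cells and at least 3 neutrophil markers in 1 and 4. At least 3 dendritic cell markers, a list that includes MHC class II chains, were detected in 30 and 29. The 24 and 19 cells were shallow, with medians of 1212 and 2369 UMIs. Beside them stand 92 and 80 leukocytes with as many macrophage markers inside the rule. The median Ptprc count of macrophage-like cells was 2 UMIs in tdT1 and 1 in tdT2, and of monocyte-like cells 8.5 and 5, so the macrophage-like class lay nearer to the limit of the rule.

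The reporter transcript could be read in tdT2 alone, since Tdtomato was not a listed feature in tdT1. In tdT2, 18 of 144 leukocytes held a Tdtomato UMI (12.5%, interval 7.58 to 19.0), 21 UMIs in all, with at most 2 in a cell. Of the 242 cells with Dcn at 20 per 10000 or above, 62 did (25.6%, interval 20.2 to 31.6), with 90 UMIs and at most 6 in a cell. No Tdtomato UMI was found in 5488 WT cells or 3391 TNF-Tg cells. Those mice lack the transgene, so their 0 checks the counting of the feature and gives no estimate of free reporter RNA in tdT2, which was not estimated here. Per 10000 UMIs, the reporter level was 0.268 (interval 0.166 to 0.410) in leukocytes and 0.671 (0.539 to 0.825) in the Dcn-rich cells. The leukocytes had the lower level of these and the intervals did not overlap. The 68 cells with no Ptprc UMI and Dcn under 20 per 10000 had 0.302 (0.121 to 0.622), with a UMI in 6. Their interval overlapped both others. Those 68 cells included 19 with at least 3 macrophage markers and 29 with at least 3 dendritic cell markers, so the group was not free of leukocyte-like cells. Cells under 1500 UMIs were then left out and the others thinned to 1500. Of these, 6 of 137 leukocytes (4.38%, 1.62 to 9.29) and 17 of 223 Dcn-rich cells (7.62%, 4.50 to 11.9) held a Tdtomato UMI, and these intervals overlapped. The median depth was 4826 UMIs in the leukocytes and 5475 in the Dcn-rich cells.

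**Figure D4:**
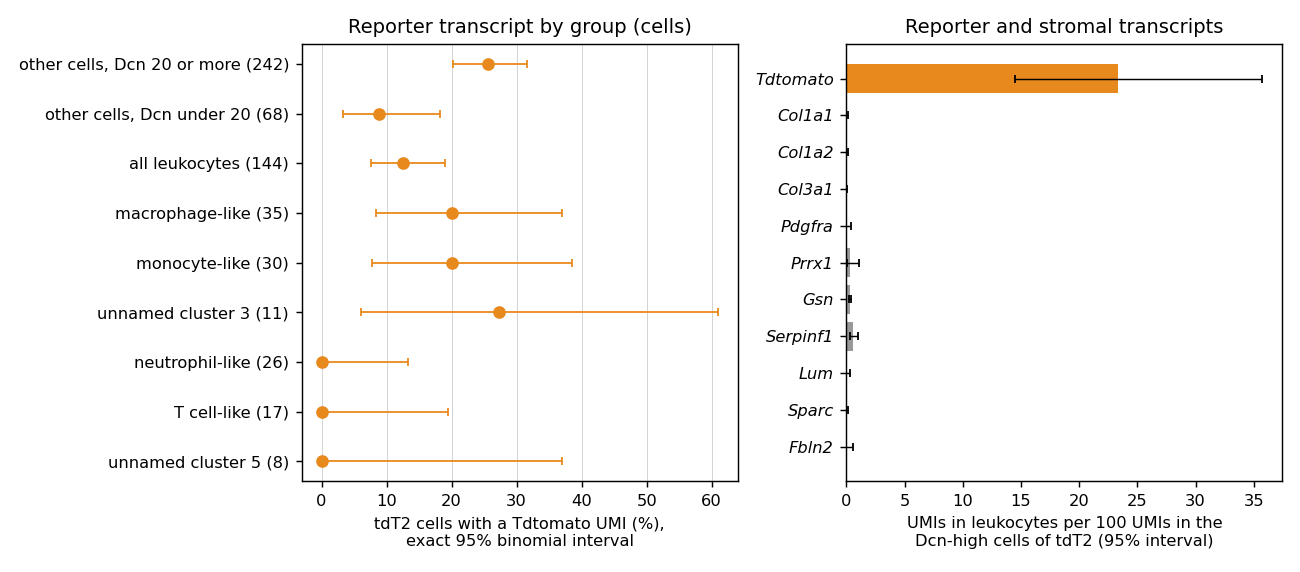
Left: percentage of tdT2 cells with a Tdtomato UMI, with exact 95% binomial intervals, by group (cell numbers in brackets). Right: UMIs of Tdtomato and of 10 stromal genes summed over the leukocytes of tdT2, per 100 UMIs summed over its Dcn-rich cells, with 95% intervals. Tdtomato reached 23.3 and the stromal genes at most 0.561, where the stromal values follow from the rule's limit on Dcn.

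Of the 21 reporter UMIs of the leukocytes, 16 lay in the macrophage- and monocyte-like classes. These classes held 65 of the 144 leukocytes and 359190 of their 783634 UMIs. Tdtomato was detected in 7 of 35 macrophage-like cells (20%, interval 8.44 to 36.9) and 6 of 30 monocyte-like cells (20%, 7.71 to 38.6), with 8 UMIs in each class. In unnamed cluster 3 it was detected in 3 of 11 cells, and in 1 cell each of the dendritic cell-like and NK cell or ILC-like classes. No UMI was found in 26 neutrophil-like or 17 T cell-like cells. A count of 0 allows a UMI in up to 11.5% and 17.6% of such cells (3 counts of the total). These limits concern cells with a UMI, not cells that express the reporter, and the median depths were 2306 and 5082 UMIs. Macrophage- and monocyte-like cells together had 0.445 Tdtomato UMIs per 10000 (interval 0.255 to 0.723), and neutrophil-like and lymphoid cells together 0.0549 (0.00139 to 0.306). The second value rests on 1 UMI and the intervals overlap. Lymphoid cells alone had 0.0819 (0.00207 to 0.456), and neutrophil- and mast cell-like cells 0 (up to 0.591). With 1 library that lists the reporter, the difference between the lineages was not tested over samples. With cells under 1500 UMIs left out and the others thinned to 1500, a Tdtomato UMI was held by 4 of 63 macrophage- and monocyte-like cells. Of neutrophil-like and lymphoid cells 0 of 48 held it.

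Tdtomato and stromal transcripts were also summed over the leukocytes and the Dcn-rich cells of tdT2. The rule itself splits these groups by Dcn, so low stromal levels in the leukocytes follow from the selection and support nothing. The leukocytes of tdT2 held 23.3 Tdtomato UMIs per 100 in the Dcn-rich cells (interval 14.4 to 35.7). For the same cells, Gsn, which encodes the actin-binding protein gelsolin, gave 89 UMIs against 30087, or 0.296 per 100. Col1a1 gave 0 against 3418, Col3a1 0 against 4903 and Serpinf1, the highest of the 10 stromal genes, 13 against 2319, or 0.561. Cspg4 had 11 UMIs in the Dcn-rich cells and 0 in the leukocytes, too few to compare. The source of the reporter UMIs in leukocytes was not tested.

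Sex-linked transcripts separated the replicates. Xist, the RNA of the inactive X chromosome, was detected in 72 of 144 leukocytes of tdT2, and no UMI of the Y-linked genes Ddx3y, Eif2s3y, Kdm5d or Uty was found in that library. In tdT1, 57 leukocytes held Xist, 107 a Y-linked gene and 3 both. In WT, which was male, 1866 leukocytes held a Y-linked gene and 15 held Xist. tdT1 thus held cells with Xist and cells with Y-linked transcripts, and few with both. Within it, the macrophage-like class had 28 cells with a Y-linked gene alone and 6 with Xist alone, and the T cell-like class 7 and 8.

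The macrophage-like cells of the tdT libraries were set against those of WT, the largest class in each library. Their counts were summed to 263029 UMIs in tdT1, 141510 in tdT2 and 18736925 in WT. Both clusters of the class were summed, and their cell numbers and depths differed between the libraries. With edgeR's quasi-likelihood test and Benjamini-Hochberg adjustment over 4956 genes, 48 genes (0.969%) passed an adjusted p of 0.05. Of these, 43 (0.868%) were higher in tdT and 5 (0.101%) lower, and the median log2 fold change of all genes was 0.03. The WT arm was 1 library, so the spread came from the 2 tdT libraries alone (1 residual degree of freedom) and WT was assumed to vary like them. For each gene it was set by the trend over genes, not by that gene's own difference between the tdT libraries. The p-values are therefore weak evidence, and the values of each library stand beside them. In 16 of the 43 higher genes and all 5 lower genes both tdT libraries lay at least 2-fold from WT on the same side. Among these 16, Ptp4a1, Pecam1, Tnip3, Hspb1 and Nfib had 1 UMI each in tdT2, in 1 of 35 cells. For them the second library rests on 1 molecule. Of all 43 higher genes, these included, 26 had at most 1 UMI in tdT2, so that most higher calls rested on tdT1. DESeq2 called 5 genes higher and 0 lower, with 105 genes at an unadjusted p under 0.05. Of the 15 genes plotted by library, Xist, Ptp4a1 and Ccl4 passed with DESeq2 and the other 12 did not.

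**Figure D5:**
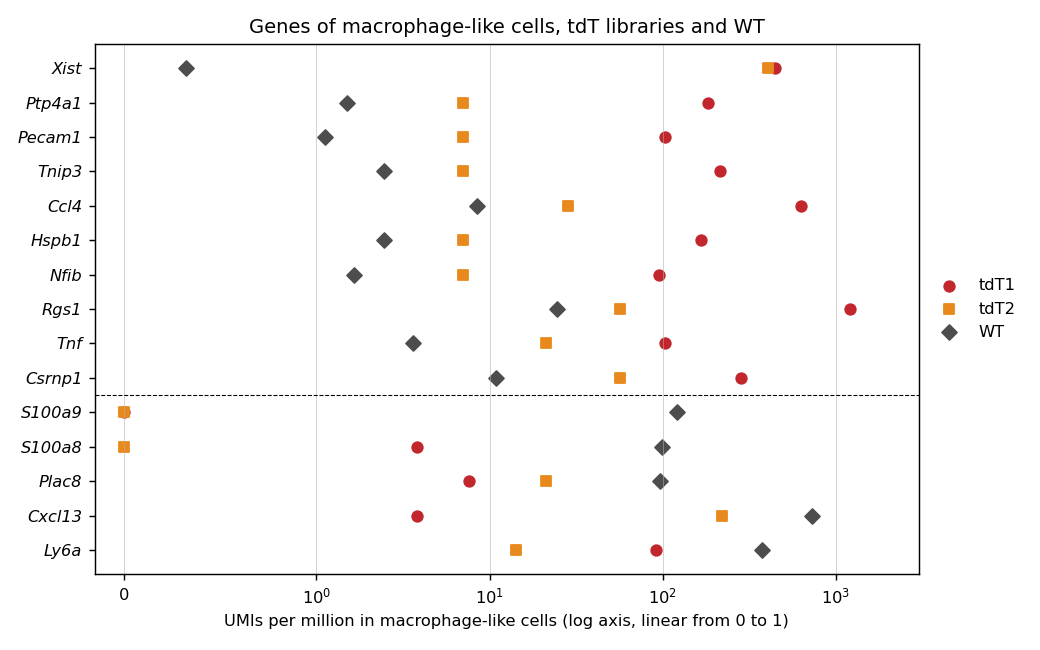
Points give CPM in macrophage-like cells of tdT1, tdT2 and WT on a log axis (linear from 0 to 1), for the 10 genes with the largest increase among those called with both tdT libraries at least 2-fold above WT, and for the 5 that fell, below the dashed line. For Xist the tdT points lie together near 400, while for the other higher genes tdT2 lies between WT and tdT1. The tdT2 points of Ptp4a1, Pecam1, Tnip3, Hspb1 and Nfib rest on 1 UMI each. For Pecam1, Hspb1, Nfib and Rgs1 most tdT1 UMIs came from 1 cell.

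Xist had 445 CPM in tdT1, 403 in tdT2 and 0.32 in WT (log2 fold change 10.23 ± 1.29 (SE), edgeR adjusted p = 2.72e-12). In tdT1 7 of 41 cells held it, and in tdT2 23 of 35. A Y-linked gene without Xist was detected in 28 of these cells in tdT1, 0 in tdT2 and 1092 of 1468 in WT, which was male. Sex-linked transcripts thus differed along with the reporter and the sort, and their source was not tested.

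Ccl4, Tnf, Csrnp1 and Tnip3 were also higher, with tdT1 far above tdT2. Of 4 inflammatory cytokines tested, Tnf alone passed, the median log2 fold change was 0.09, and 1 of the 4 lay above WT in both tdT libraries, against 28.2% of all genes. Ccl4, a chemokine that attracts monocytes and T cells, had 627 CPM in tdT1, 28.3 in tdT2 and 8.49 in WT (log2 fold change 5.32 ± 0.988, edgeR adjusted p = 2.25e-05), and was found in 6, 1 and 71 cells. Tnf, the inflammatory cytokine, had 103, 21.2 and 3.63 (4.17 ± 0.935, edgeR adjusted p = 0.00165). Csrnp1, an immediate-early nuclear protein, had 281, 56.5 and 10.9 (3.99 ± 0.825, edgeR adjusted p = 0.000346), and Tnip3, an inhibitor of NF-kappaB signalling, 213, 7.07 and 2.46. In each of these genes tdT1 was highest and tdT2 closer to WT. The cells with Ccl4 were 14.6% of 41 in tdT1, 2.86% of 35 in tdT2 and 4.84% of 1468 in WT. The share in tdT2 was thus below that of WT, and its level came from 4 UMIs in 1 cell. Without tdT1 the log2 fold changes were 1.48 for Ccl4, 2.14 for Tnf, 2.12 for Csrnp1 and 1.11 for Tnip3, with no test. The Tnip3 value rests on 1 UMI of tdT2. Of 16 immediate-early and dissociation genes, 14 were tested and none passed, yet their median log2 fold change was 1.37 and in 13 of the 14 both tdT libraries lay above WT, against 28.2% of all genes tested. Among them Fosb had 3205 CPM in tdT1, 530 in tdT2 and 443 in WT, and Egr1 3262, 1809 and 736. The 6 stromal genes tested had a median log2 fold change of 1.17, all 6 above 0, with 2 above WT in both tdT libraries. Over all 10 stromal genes the macrophage-like cells had 928 CPM in tdT1, 261 in tdT2 and 260 in WT. Their part in the result was not tested.

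Other higher genes came from few cells. One cell of tdT1, with 39541 UMIs, held 15.0% of the macrophage-like UMIs of that library. The macrophage-like cells of tdT1 had 226 UMIs of the endothelial genes Ptprb, Selp, Vwf and Plvap, chosen after their values were seen, 225 of them in 1 cell. Rgs1, a regulator of G protein signalling, had 317 UMIs in tdT1, of which 288 were in 1 cell, and Pecam1, which encodes the endothelial and platelet adhesion molecule CD31, 25 of 27. The same held for the small heat shock protein gene Hspb1 (41 of 44 UMIs) and the transcription factor gene Nfib (21 of 25). Ptp4a1, a tyrosine phosphatase gene, was spread over 18 of 41 cells of tdT1. In tdT2 it had 1 UMI in 1 of 35 cells, and in WT 27 of 1468 cells held it, so the spread was seen in tdT1 only. Only 1 macrophage-like cell, of tdT1, held 3 or more endothelial markers. Without it, a setting chosen after seeing the data, 28 genes were higher and 4 lower. Pecam1, Hspb1 and Nfib were then no longer tested, so their calls were lost.

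All 5 lower genes had few UMIs in the tdT libraries. S100a9 had no UMI in either tdT library and 120 CPM in WT, at least 16.2-fold lower against a floor of 3 counts over both libraries (edgeR adjusted p = 8.66e-07). S100a8 had 1 UMI in tdT1, none in tdT2 and 99.3 CPM in WT. Its 1 UMI lies under that floor, so no exact ratio is given, and the counting interval of the ratio runs from 7.21 to 1586. Both are neutrophil genes, and 11 of the 1468 WT cells, called doublets by Scrublet, held 89.5% of the WT UMIs of S100a9 and 90.1% of those of S100a8. Without these cells 238 and 184 UMIs were left in WT and neither gene passed the filter on low counts, so both calls were lost. Cxcl13, a B cell-attracting chemokine, had 3.8, 219 and 727 CPM (log2 fold change -2.93 ± 0.776, edgeR adjusted p = 0.0201). Ly6a, which encodes Sca-1, had 91.2, 14.1 and 372 (-2.73 ± 0.723, edgeR adjusted p = 0.0201), and Plac8, a gene of monocytes and interferon-exposed cells, 7.6, 21.2 and 96.2 (-2.95 ± 0.815, edgeR adjusted p = 0.0324).

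Few genes of the lists passed the test, and over all 4956 genes 0.969% passed, 2569 had a log2 fold change above 0 and 28.2% lay above WT in both tdT libraries. None of the 13 macrophage markers passed, with a median log2 fold change of -0.85 and all 13 below 0. None of the 7 MHC class II genes passed, with a median of 0.54, and in 6 of the 7 both tdT libraries lay above WT. H2-Aa, a class II chain, had 6429 CPM in tdT1, 5046 in tdT2 and 3830 in WT. Among 13 chemokines tested, Ccl4 and Cxcl10 passed and were higher. Cxcl10 had 479 CPM in tdT1, with 98 of its 126 UMIs in 1 cell, none in tdT2 and 1.81 in WT. Ccl8, a chemokine of resident macrophages, did not pass, with 1760, 4996 and 17717 CPM. Of 8 complement genes and 11 scavenger and lectin receptors none passed, with median log2 fold changes of -0.50 and -0.45. Nor did any of 10 interferon-stimulated genes (median 0.38) or 5 Fc receptor genes (median -0.83). Of 4 monocyte markers tested, Cx3cr1 was called higher and Plac8 lower. Cx3cr1 had 37 UMIs in tdT1, 29 of them in 1 cell, and none in tdT2, so this call rests on 1 library. The 13 mitochondrially encoded genes had a median of 1.11 and none passed, and 4 of the 13 lay above WT in both tdT libraries. The median mitochondrial share of the macrophage-like cells was 10.6% in tdT1, 1.57% in tdT2 and 1.65% in WT, so tdT1 alone stood above WT.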

How the data were processed

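The authors deposited UMI counts per gene and cell for 4 libraries of 10x 3′ single-cell RNA-seq. Per the file headers, tdT1 was counted with Cell Ranger 3.1.0 and tdT2, WT and TNF-Tg with Cell Ranger 6.0.1. The submitters' processing notes name the mm10 build and Seurat 4.0.3. The study states 1958 tdT cells after removal of low-quality cells, equal to the 1504 and 454 barcodes deposited, and no further cell was left out. Totals were 14256192 UMIs (tdT1), 2357031 (tdT2), 68773605 (WT) and 37557627 (TNF-Tg). The cells and gene lists were chosen with earlier results of these data known.

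Members of tdT1, tdT2 and WT were integrated over 30406 shared genes in Seurat 5.3.0 (2000 variable features, 30 dimensions, resolution 0.5). Scrublet (scanpy 1.11.5) marked as doublets 4 cells of tdT1, 0 of tdT2 and 137 of WT, of which 1, 0 and 21 were leukocytes by the rule, and none was removed in the main analysis. No barcode was shared between tdT1 and tdT2, and none between their leukocytes and WT. Levels are counts per 1000000 UMIs (CPM), summed over cells. Each library is 1 pool of 3 mice, so SDs measure the spread between the tdT pools. The p-values do not measure the spread of a single gene between pools, since that was set by a trend over genes.

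Summed counts of macrophage-like cells were tested with edgeR 4.0.16 (quasi-likelihood), with DESeq2 1.42.0 as an alternative. The residual degrees of freedom were 1 and the spread of each gene was set by the trend over genes. On simulated data for this comparison with 4956 genes, 42 of 50 genes changed by a log2 of 4, 2 of 49 by 2 and 0 of 46 by 1 were called. The rule for named genes gave Ptprc, Dcn, Tdtomato and Cspg4, the 5 leading genes per class by fold, members of the 23 cell type and 13 function lists, and, in the comparison with WT, up to 10 genes per direction past an adjusted p of 0.05 with both tdT libraries at least 2-fold from WT. Gene positions are from GENCODE M21.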

Additional observations from a re-analysis of the deposited data

How the results depend on the processing

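Requiring 2 Ptprc UMIs lowered the leukocyte share to 10.8% in tdT1 and 22.7% in tdT2, and Dcn under 5 per 10000 to 10.97% in tdT1. With cells under 1500 UMIs left out and the others thinned to 1500, it was 10.5% (129 of 1227 cells) and 22.9% (93 of 406). This setting changed both the cells counted and their depth. The mean of both median depths was 6569 UMIs (8216 in tdT1, 4923 in tdT2) and 2156 genes without low-quality cells, and 6274 and 2088 with 2 Ptprc UMIs. The mean macrophage-like share was 18.5% with tdT1 and tdT2 clustered alone, 14.5% without integration and 18.5% without low-quality cells. Clustered alone, the class named T cell-like took 27.8%, dendritic cell-like cells 10.7% and unnamed cells 9.56%. Most tdT1 cells of that T cell-like class lacked 3 T cell markers. No NK cell or ILC-like, proliferating or mast cell-like class was named. Without integration the shares were 12.7% for T cell-like, 20.2% for B cell-like, 1.42% for NK cell or ILC-like and 2.59% for proliferating cells. Most tdT1 cells of that B cell-like class lacked 3 B cell markers. Without low-quality cells they were 2.13% for proliferating and 11.4% for dendritic cell-like cells. Leaving out 1 tdT replicate gave 19.7% to 24.3% for macrophage-like, 11.5% to 20.8% for monocyte-like, 7.69% to 18.1% for neutrophil-like, 10.6% to 11.8% for T cell-like and 2.08% to 7.69% for B cell-like cells. With 2 Tdtomato UMIs required, 2.08% of tdT2 leukocytes met it. Of the 137 with at least 1500 UMIs, 4.38% held a Tdtomato UMI after thinning.

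In the macrophage-like comparison, DESeq2 called 5 genes higher and 0 lower (105 at an unadjusted p under 0.05), and edgeR without a filter on low counts called 70 higher. Without the cell with 3 endothelial markers, a setting chosen after seeing the data, 28 were higher. Pecam1, Hspb1 and Nfib were no longer tested in that setting. Without doublets 3 were lower (Plac8, Cxcl13 and Ly6a), while S100a8 and S100a9 were no longer tested. Xist, Ptp4a1 and Ccl4 passed under all 6 alternatives with a test, and each of the other genes plotted by library lost its call under at least 1. Cxcl10 and Cx3cr1 were not followed through the alternatives. With 1 tdT library left out, 1 library stood against 1 and no test was made. The log2 fold change then ranged from 8.21 to 8.54 for Xist. Without tdT1 it was 1.59 for Ptp4a1, 1.48 for Ccl4 and 1.02 for Rgs1, all in the same direction. These values rest on 1, 4 and 8 tdT2 UMIs, respectively, so the shared direction is weak evidence. For Cxcl13 the log2 fold change was -7.24 without tdT2 and -1.88 without tdT1, and for Ly6a -1.98 and -4.78. On simulated data changes of a log2 of 2 were rarely called, so smaller differences were not detectable with these libraries. No paired analysis was possible because WT is 1 library and shares at most 1 replicate number with tdT. The cause of these changes was not tested.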
